A study of Homo sapiens with 4 samples.

Results

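Messages for the classical splicing machinery were followed through an RNA immunoprecipitation: the SR proteins (SRSF genes), the hnRNP proteins (HNRNP genes), the core spliceosomal snRNP proteins (SNRP genes), the SF3A and SF3B subunits of the U2 snRNP (SF3 genes) and the U2AF pair. A gene was a member if it was annotated as protein-coding and its symbol was one of these letter stems followed by its number or letter, and 55 of the 24483 genes of the deposited table met this rule. They comprised 12 SRSF, 20 HNRNP, 12 SNRP, 9 SF3 and 2 U2AF genes. HNRNPA2B1 and SNRNP70 do not match that spelling and are not members, although both belong to these protein groups by function. The RNA came from PANC-1, a line long established from a human ductal adenocarcinoma of the pancreas and kept here in 10% serum. The cells had received 30 mM sodium lactate for 24 h, or the water vehicle for the same time. NSUN2, a methyltransferase that places 5-methylcytosine on tRNA and mRNA, was precipitated with an antibody on protein A/G beads for 4 h, and input RNA was set aside before that step. The 4 groups were the lactate IP, the lactate input, the vehicle IP and the vehicle input, all of the same line with no genetic change named in the labels, with 1 library in each. Every difference below therefore lacks a replicate check and carries no p-value, and a precipitation with a control antibody was not analysed here.

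SR proteins bind exonic enhancers through their RNA recognition motifs and recruit the spliceosome through arginine and serine rich tails. The hnRNP proteins coat nascent RNA, and many of them silence exons or act in export, decay and translation. Sm proteins form the ring around the U1, U2, U4 and U5 RNAs, while U2AF and SF3 bring the U2 snRNP to the 3′ splice site and the branch point. Many of these genes also control their own messages through cassette exons that trigger decay, so the levels of SR and hnRNP messages are known to be tightly regulated.

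FPKM scale the fragments of a gene by its length and by the fragments of the library, as deposited, and the whole reads behind them were recovered from their steps. Totals were 15189967 reads in the lactate IP, 11175432 in the lactate input, 13620414 in the vehicle IP and 17626197 in the vehicle input. The mitochondrial ribosomal RNA MT-RNR2 took 83.7% of reads in the lactate IP and 55.1% in its input, against 68.0% in the vehicle IP and 41.0% in its input. Nuclear genes kept 13.9% and 20.9% of reads in the lactate IP and lactate input, and 30.3% and 31.3% in the vehicle IP and vehicle input. These shares move with every FPKM comparison between libraries, and their part in a result was not tested. Of 10 markers of the ductal line 7 reached 1 FPKM in an input. KRT8, KRT18 and VIM were abundant in the inputs, while KRT7, EPCAM and CDH1 were low. Of 14 markers of other cell types, COL1A1 and COL3A1 alone reached 1 FPKM in an input, and the leukocyte marker PTPRC was near 0.

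Promoter sequences were available for 51 of the 55 members, in RefSeq windows of 300 bases (GRCh38.p14) from 250 bases before to 50 after each start. HNRNPA1, SNRPD1, SRSF2 and SF3B3 had no window. Both motifs below were chosen after the windows had been read, and a match describes letters only. The letters CCGGAAG, known from ETS factor sites, were searched on both strands and stood in 28.4% of the 74 member windows. They stood in 19.4% of the 8883 windows of protein-coding genes at 1 FPKM or more, and in 10.3% of all 35116 windows. Within 50 bases of a start they occurred in 11 of 51 members (21.6%), against 15.4% of the 6147 protein-coding genes at 1 FPKM or more. They were concentrated in the SF3 genes, where 6 of 8 had a match near the start. These 4 SF3 genes are shown because the first pair was enriched in the IP and the second pair depleted, although the same letters stand near each start. The match is in capitals, each sequence reads 5′ to 3′ on the gene's own strand, and CTTCCGG is its reverse complement.
SF3B2 (chr11:66052339-66052368, plus strand): gctggccccagCTTCCGGgttggtcgcgcg
SF3A3 (chr1:37989996-37990025, minus strand): ggcaggagttgCTTCCGGccgtgttggtgg
SF3B4 (chr1:149927811-149927840, minus strand): ccgtcttcgccCCGGAAGtggaagtcgtgc
SF3B6 (chr2:24076327-24076356, minus strand): cgctgtaacagCTTCCGGcgggtcctggat

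The letters CCATNTT, known from YY1 sites and also searched on both strands, stood in 21.6% of member windows. They stood in 16.5% of windows of protein-coding genes at 1 FPKM or more, and in 15.6% of all windows. Near the start they occurred in 12 of 51 members (23.5%), against 12.8% of expressed protein-coding genes. At SF3B6 a match of each motif overlapped. HNRNP genes held 6 of the 12. These 4 matches are shown because they lie near the start in 3 genes that were lower in the lactate IP than in its input and in HNRNPUL1, which was not.
SRSF1 (chr17:58007227-58007256, minus strand): tgataaaggcgCCATTTTggaggggccgcg
HNRNPC (chr14:21269408-21269437, minus strand): agactcgggggCCATTTTgtgaagagacga
HNRNPD (chr4:82373968-82373997, minus strand): tcttccgtcggCCATTTTaggtggtccgcg
HNRNPUL1 (chr19:41264359-41264388, plus strand): ggtggcggcggCCATTTTgagccgctgccg

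**Figure D1:**
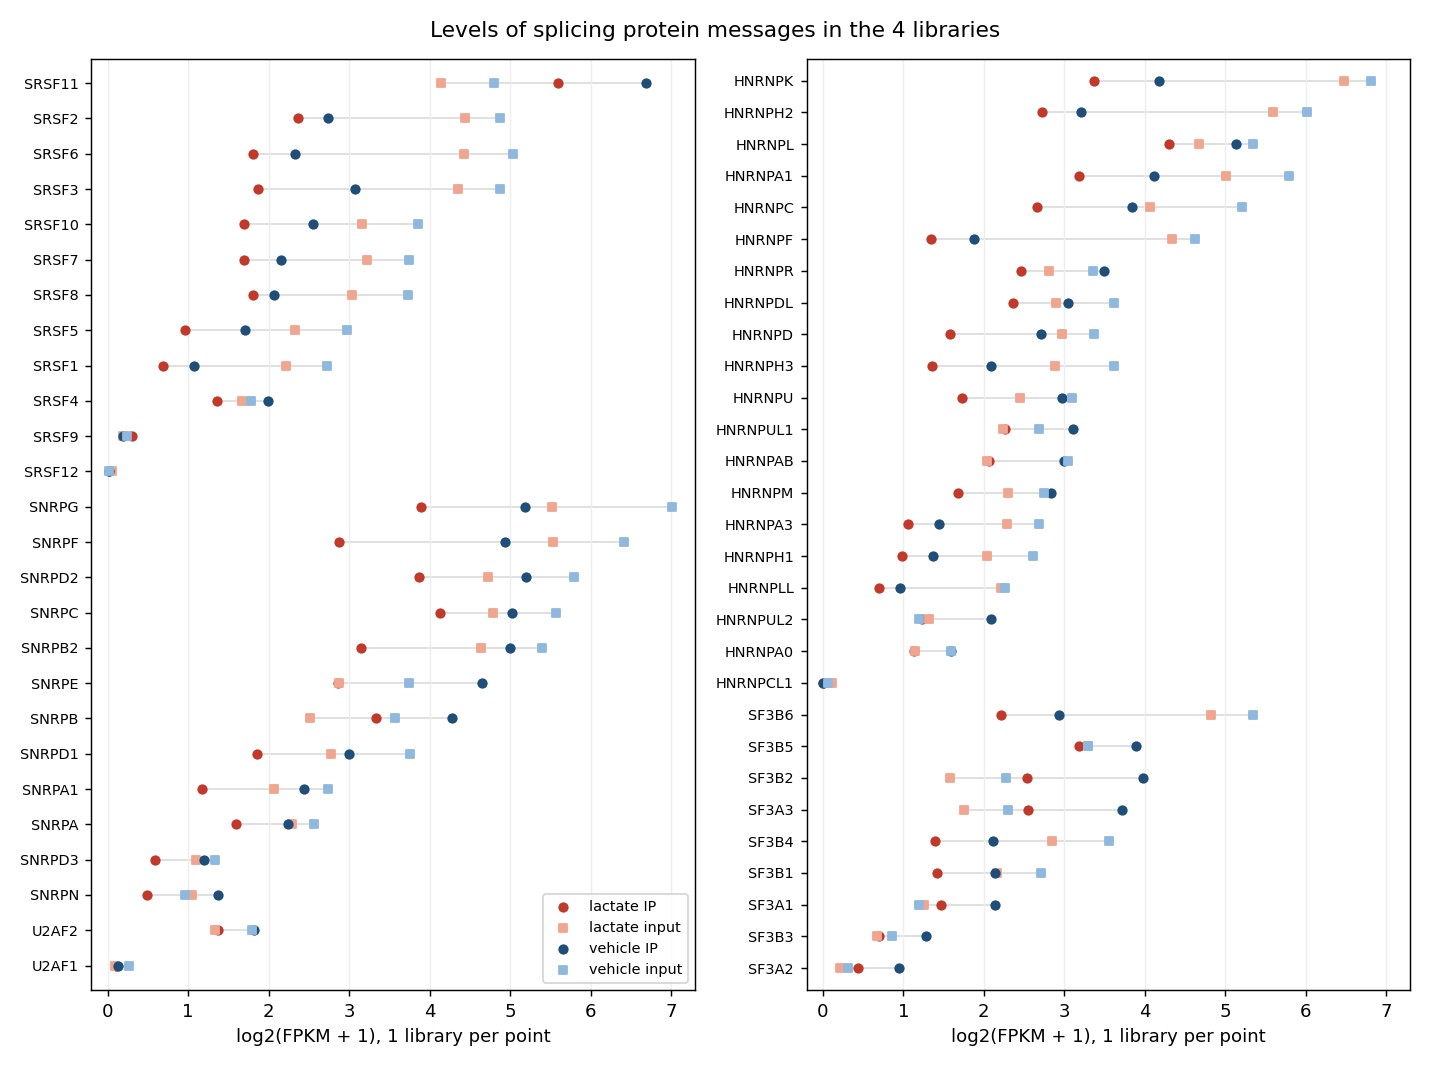
Level of each of the 55 members in the 4 libraries, as log2(FPKM + 1) on the horizontal axis, with IP libraries as circles, inputs as squares and 1 library per point. Most SRSF and HNRNP circles lie left of their squares, while SRSF11, SF3B2 and SF3A3 have both circles to the right of the square of the same treatment.

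Most members were present well above the counting floor. FPKM of at least 1 in 1 of the compared libraries was reached by 49 of the 55 members in lactate cells and by 50 in vehicle cells. HNRNPK, a poly-C binding protein of transcription and translation, had the highest mean FPKM of the HNRNP genes over the 4 libraries, with 9.33 FPKM in the lactate IP against 88.1 in its input, and 17.0 FPKM in the vehicle IP against 111 in its input. SNRPG, an Sm ring subunit, had the highest such mean of the SNRP genes, with 13.9 FPKM in the lactate IP against 44.7 in its input, and 35.3 FPKM in the vehicle IP against 128 in its input. SF3B6, the subunit that contacts the branch adenosine, was the highest SF3 member in the inputs, at 27.2 FPKM in the lactate input and 39.5 in the vehicle input. SRSF11 was the highest SRSF gene by mean FPKM, but only in the IP libraries, since SRSF6, SRSF2 and SRSF3 exceeded it in both inputs. At the low end, SRSF12 had 1 read in the lactate IP, 2 in its input, 1 in the vehicle IP and 1 in its input. HNRNPCL1, a copy related to HNRNPC, had 0 reads in the lactate IP and 0 in the vehicle IP, which allows up to 3 reads in either. U2AF1, which reads the AG of the 3′ splice site, had 13 reads in the lactate IP, 8 in the lactate input, 14 in the vehicle IP and 40 in the vehicle input. The human assembly holds a near-identical U2AF1 copy and the sources used here do not give the counter's handling of shared reads, so that this level is uncertain. SRSF9 had 13 reads in the lactate IP and 6 in its input, against 7 in the vehicle IP and 12 in its input, and SF3A2 stayed below 1 FPKM in all 4 libraries.

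Enrichment with NSUN2, the IP over its own input, was the first comparison. Many splicing messages were lower in the IP than in its input, and few were higher. In lactate cells 23 of 49 measured members lay at least 2-fold below the input and 1 lay at least 2-fold above it, on the scale of log2(FPKM + 1). Of the 7170 genes tested there, 23.3% passed the lower limit and 16% the upper one, and among protein-coding genes 22.4% and 13.7% did. In vehicle cells 21 of 50 measured members passed the lower limit and 3 the upper one. Of the 9099 genes tested there, 15.3% and 27.6% did, and among protein-coding genes 14.8% and 26%. The median member stood at −0.89 in lactate cells, against −0.10 for the median gene, and at −0.57 in vehicle cells, against 0.44. Fewer cells and less RNA per cell cannot be told apart in such bulk libraries, and IP values give shares of the recovered RNA, not amounts. Protein-coding genes were also split into 4 equal classes by mean level over the libraries. In lactate cells the highest class held 23 measured members, 13 of them at least 2-fold below the input, where 35.8% of its 1473 genes were. In vehicle cells it held 33 members, 16 of them past the same limit, where 25.7% of its 1841 genes were.

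Among SR proteins 8 of 10 measured SRSF members were at least 2-fold lower in the IP and 1 at least 2-fold higher, in lactate as in vehicle cells, with medians of −1.50 in lactate and −1.63 in vehicle cells. SRSF11 (ENSG00000116754), an atypical SR protein that associates with U2AF, had 47.4 FPKM in the lactate IP against 16.7 in its input, and 102 FPKM in the vehicle IP against 26.8 in its input. It was the SRSF gene far above its input in both treatments, with a log2 ratio of 1.45 in lactate and 1.89 in vehicle cells. On reads, without a pseudocount, its lactate log2 ratio was 1.51, with a 95% counting interval of 1.43 to 1.59, and its vehicle one was 1.93, with a 95% counting interval of 1.88 to 1.98. SRSF4, which acts on enhancers and has a long tail, was near its input, with 1.55 FPKM in the lactate IP against 2.19 in its input, and 2.97 FPKM in the vehicle IP against 2.45 in its input. At the other end stood SRSF6, a regulator of alternative exons, with 2.50 FPKM in the lactate IP against 20.5 in its input, and 4.04 FPKM in the vehicle IP against 31.9 in its input. Both its IP values were several-fold below both inputs. SRSF2, a marker protein of nuclear speckles, had 4.16 FPKM in the lactate IP against 20.7 in its input, and 5.65 FPKM in the vehicle IP against 28.5 in its input, and its log2 ratio was −2.07 in lactate cells and −2.15 in vehicle cells. SRSF3, an adaptor of mRNA export, had 2.66 FPKM in the lactate IP against 19.4 in its input, and 7.39 FPKM in the vehicle IP against 28.4 in its input. SRSF3 thus had a lower lactate than vehicle ratio, −2.48 against −1.81, whereas SRSF8, an intronless relative of SRSF2, ran the other way at −1.23 in lactate and −1.67 in vehicle cells. The remaining SRSF1, SRSF5, SRSF7 and SRSF10 had log2 ratios between −1.53 and −1.37 in lactate cells and between −1.66 and −1.27 in vehicle cells.

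SRSF11 dominated the SR reads of the IPs. It supplied 79.1% of all SRSF reads in the lactate IP and 21.6% in the lactate input, against 80.8% in the vehicle IP and 22.4% in the vehicle input. The 12 SRSF genes together took 0.365% of nuclear reads in the lactate IP (95% Wilson interval 0.357 to 0.374, counting error only) and 0.312% in its input, and 0.355% in the vehicle IP and 0.324% in its input. Without SRSF11 the share was 0.0765% in the lactate IP against 0.245% in its input, and 0.0682% in the vehicle IP against 0.252% in its input. The family total was thus about level between IP and input, while the other 11 genes together were lower in both IPs.

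**Figure D2:**
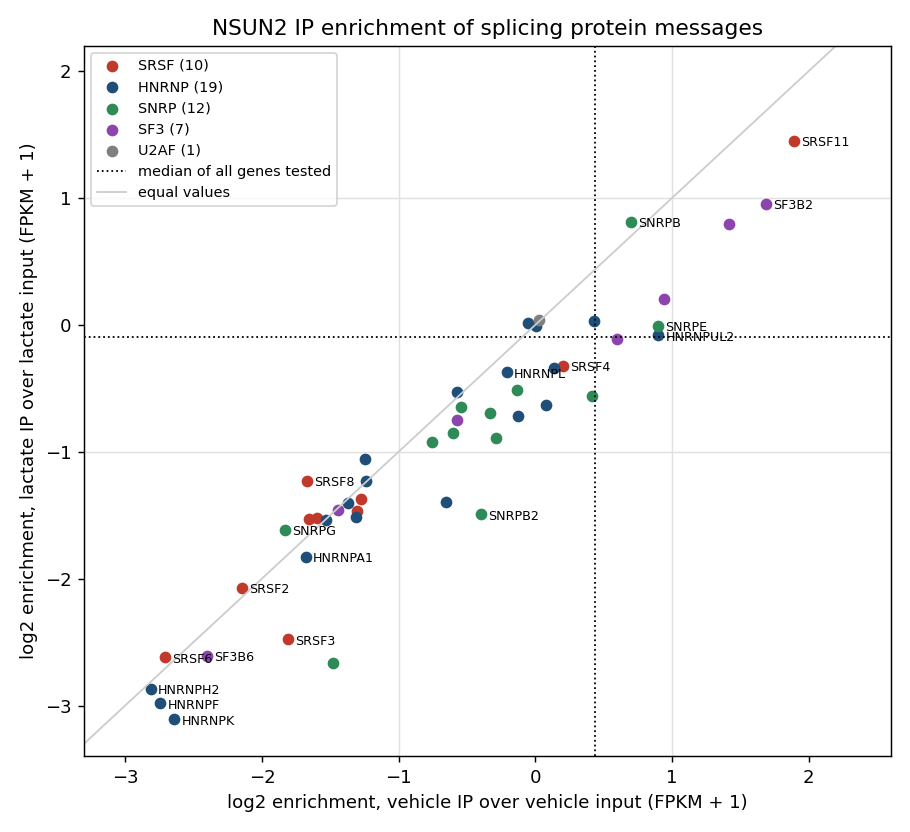
Log2 ratio of IP over input (FPKM + 1) for the 49 members measured in both treatments, lactate on the vertical and vehicle on the horizontal axis, coloured by family, with dotted lines at the medians of all genes tested and a grey line of equal values. SRSF11 is at the upper right with SF3B2 and SF3A3 below it, and HNRNPK, HNRNPF, HNRNPH2, SRSF6 and SF3B6 are at the lower left.

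Among hnRNP genes 10 of 19 measured members were at least 2-fold lower in the lactate IP than in its input, with a median of −1.05, and 9 of 19 in the vehicle IP, with a median of −0.65. None was at least 2-fold higher in either. HNRNPH2 and HNRNPF, which bind runs of G, were among the lowest in both. HNRNPH2 had 5.59 FPKM in the lactate IP against 47.1 in its input, and 8.22 FPKM in the vehicle IP against 63.9 in its input, and HNRNPF had 1.55 FPKM in the lactate IP against 19.1 in its input, and 2.69 FPKM in the vehicle IP against 23.7 in its input. Each IP value lay far below its input. The paralogs HNRNPH1 and HNRNPH3, which bind the same kind of sequence, had log2 ratios of −1.05 and −1.54 in lactate cells and −1.25 and −1.53 in vehicle cells. HNRNPK had a log2 ratio of −3.11 in lactate cells, the lowest lactate value of any member, and of −2.64 in vehicle cells. On reads the HNRNPK ratios were −3.24, with a 95% counting interval of −3.35 to −3.13, in lactate cells, and −2.71, with a 95% counting interval of −2.80 to −2.62, in vehicle cells. HNRNPA1, the classical exon silencer, had 8.05 FPKM in the lactate IP against 31.1 in its input, and 16.4 FPKM in the vehicle IP against 54.6 in its input, and HNRNPC, which binds uridine tracts as a tetramer, had 5.33 FPKM in the lactate IP against 15.7 in its input, and 13.3 FPKM in the vehicle IP against 36.1 in its input. HNRNPA2B1, outside the rule but close kin to HNRNPA1, had 7.97 FPKM in the lactate IP against 120.1 in its input, and 18.6 FPKM in the vehicle IP against 190.1 in its input, and its log2 ratios of −3.75 in lactate and −3.29 in vehicle cells were below those of every member.

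Several hnRNP genes stood apart from that depletion. HNRNPUL2, a DNA damage response factor related to HNRNPU, had 1.35 FPKM in the lactate IP against 1.49 in its input, and 3.26 FPKM in the vehicle IP against 1.28 in its input. It was level with its input in the lactate IP, at −0.08, and above it in the vehicle IP, at 0.90. HNRNPUL1, of the same subfamily, had log2 ratios of 0.03 in lactate and 0.43 in vehicle cells. HNRNPAB, which also acts in mRNA transport, had 3.17 FPKM in the lactate IP against 3.13 in its input, and 6.97 FPKM in the vehicle IP against 7.26 in its input, so that its IP and input were alike under either treatment. HNRNPL, a CA-repeat binding protein, was the most abundant HNRNP message of both IPs, with 18.8 FPKM in the lactate IP against 24.5 in its input, and 34.1 FPKM in the vehicle IP against 39.5 in its input. HNRNPLL, its paralog known for its role in T cells, had only 0.621 FPKM in the lactate IP against 3.64 in its input, and 0.941 FPKM in the vehicle IP against 3.82 in its input, and so differed from HNRNPL in ratio as well as level. HNRNPA0, an AU-rich element binder, had the lowest mean FPKM over the 4 libraries of the measured HNRNP genes, with 1.19 FPKM in the lactate IP against 1.21 in its input, and 2.02 FPKM in the vehicle IP against 2.01 in its input. HNRNPA3 counts are uncertain because its pseudogenes drew reads as well: its lactate log2 ratio was −1.23 alone and −0.91 with pseudogene reads added, and its vehicle ratio was −1.24 alone and −0.47 with them, neither past 2-fold once they were added. As a family, the hnRNP genes took 0.359% of nuclear reads in the lactate IP against 0.727% in its input, and 0.346% in the vehicle IP against 0.745% in its input.

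For core snRNP messages 3 of 12 SNRP members were at least 2-fold lower in the lactate IP, with a median of −0.77, and 2 of 12 in the vehicle IP, with a median of −0.36. None was at least 2-fold higher in either. These counts of lower SNRP genes are near the shares of all genes past that limit, 23.3% in lactate and 15.3% in vehicle cells. In the Sm ring the subunits differed among themselves. SNRPE and SNRPB had the highest log2 ratios of the family, −0.01 and 0.81 in lactate cells and 0.90 and 0.70 in vehicle cells. SNRPB, the SmB protein, had 9.06 FPKM in the lactate IP against 4.72 in its input, and 18.4 FPKM in the vehicle IP against 10.9 in its input, and was higher in the IP than in the input under both treatments. SNRPE had 6.30 FPKM in the lactate IP against 6.32 in its input, and 24.1 FPKM in the vehicle IP against 12.4 in its input, so that IP and input were alike in lactate cells while the IP was higher in vehicle cells. Its pseudogenes drew reads too, and with these added its log2 ratio was 0.18 in lactate and 0.73 in vehicle cells. SNRPG and SNRPF, by contrast, were the lowest of the family, at −1.62 and −2.66 in lactate cells and −1.83 and −1.48 in vehicle cells. SNRPF had 6.32 FPKM in the lactate IP against 45.4 in its input, and 29.5 FPKM in the vehicle IP against 84.0 in its input, with the lactate IP value far below the other 3. SNRPD1, SNRPD2 and SNRPD3, which complete the ring, had log2 ratios between −0.92 and −0.51 in lactate cells and between −0.76 and −0.14 in vehicle cells. SNRPA and SNRPC of the U1 particle stood at −0.69 and −0.65 in lactate cells and at −0.33 and −0.55 in vehicle cells. SNRPA1 of the U2 particle was at −0.89 in lactate and −0.29 in vehicle cells, and SNRPB2 of the same particle at −1.49 in lactate and −0.40 in vehicle cells. SNRPN, a paralog of SNRPB from an imprinted locus, had the lowest mean FPKM of the SNRP members, with 0.406 FPKM in the lactate IP against 1.08 in its input, and 1.59 FPKM in the vehicle IP against 0.949 in its input. SNRPG levels are uncertain: 4 of its pseudogenes held 232 reads in the lactate IP and 558 in its input, against 306 in the vehicle IP and 2800 in its input, beside 373 SNRPG reads in the lactate IP and 882 in its input, and 848 in the vehicle IP and 3980 in its input. With those reads added its log2 ratio was −1.65 in lactate cells and −2.16 in vehicle cells.

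SF3 genes had a median of −0.11 in lactate cells, where 2 of 7 measured members passed the lower 2-fold limit and none the upper one. In vehicle cells their median was 0.51, near the 0.44 of all genes, and 2 of 8 passed each limit. All of these counts are few, beside 23.3% of all genes lower in lactate cells, and 27.6% higher and 15.3% lower in vehicle cells. The lactate median turned to 0.39 with equal nuclear totals, where that of all genes was 0.53. The vehicle one was 0.04 with median ratios, where that of all genes was −0.15. SF3B2 (ENSG00000087365), a subunit that binds SF3B4, had 4.79 FPKM in the lactate IP against 1.98 in its input, and 14.7 FPKM in the vehicle IP against 3.86 in its input. SF3A3, a zinc finger subunit of SF3A, had 4.85 FPKM in the lactate IP against 2.37 in its input, and 12.1 FPKM in the vehicle IP against 3.92 in its input. Both genes were higher in the IP under either treatment, with lactate log2 ratios of 0.96 and 0.80 and vehicle ratios of 1.69 and 1.42. On reads the SF3B2 ratio was 1.27, with a 95% counting interval of 1.05 to 1.50, in lactate cells, and 1.93, with a 95% counting interval of 1.80 to 2.06, in vehicle cells. SF3B6 had 3.63 FPKM in the lactate IP against 27.2 in its input, and 6.66 FPKM in the vehicle IP against 39.5 in its input, and SF3B4, an RNA-binding subunit that touches the pre-mRNA upstream of the branch point, had 1.62 FPKM in the lactate IP against 6.20 in its input, and 3.32 FPKM in the vehicle IP against 10.7 in its input. These subunits of the same complex were thus on opposite sides: SF3B6 had log2 ratios of −2.61 in lactate and −2.40 in vehicle cells, and SF3B4 had −1.46 in lactate and −1.44 in vehicle cells. SF3B1, the branch point clamp that is mutated in several cancers, was at −0.75 in lactate and −0.57 in vehicle cells. SF3A2 was the lowest of the family in level, with 0.354 FPKM in the lactate IP against 0.160 in its input, and 0.921 FPKM in the vehicle IP against 0.244 in its input. U2AF2, which binds the polypyrimidine tract, had 1.60 FPKM in the lactate IP against 1.53 in its input, and 2.53 FPKM in the vehicle IP against 2.46 in its input, and showed no enrichment either way at 0.04 in lactate and 0.03 in vehicle cells.

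The lactate and vehicle ratios, which came from separate libraries, were then set side by side. The 23 members at least 2-fold lower in lactate cells included all 21 that were so in vehicle cells, and the additional ones were HNRNPD and SNRPB2. The overlap of such calls was not computed over all genes, so it is not a result about the members. HNRNPD, the decay factor AUF1, had 1.98 FPKM in the lactate IP against 6.86 in its input, and 5.55 FPKM in the vehicle IP against 9.31 in its input. SRSF11 alone passed the upper limit in both. Across the 49 members measured in both, the lactate and vehicle log2 ratios had a Pearson correlation of 0.948 and a Spearman correlation of 0.951, against 0.899 and 0.897 over 6824 genes, which share library depth and preparation and are not independent points. With nuclear totals made equal, 4 lactate members passed the upper limit and 17 the lower one, so that 19.0% of members past 2-fold were higher instead of 4.17%. The median of all genes was then 0.53, against −0.10 as deposited. Below it lay 43 of 50 measured members, against 38 of 49 as deposited. The shares of all genes past 2-fold were not computed under that scaling. The medians of SRSF, HNRNP and SNRP members were below 0 under both scalings tried and as deposited, in either treatment.

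The median of the members was below that of protein-coding genes of similar length in both treatments. In the shortest of 4 equal length classes of protein-coding genes the members' median lactate ratio was −1.15, against −0.14 for all genes of that class, and in the longest class it was −0.53 against 0.03. In vehicle cells the medians were −0.60 for members and 0.31 for all genes in the shortest class, and 0.01 and 0.53 in the longest.

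Levels in the inputs were compared between treatments next. No member was at least 2-fold higher in the lactate input than in the vehicle input, and 5 of 49 were at least 2-fold lower, where 1.76% of all 6766 genes were higher and 6.46% lower (0.036% and 3.07% of protein-coding genes). The median member stood at −0.55 and the median gene at −0.43. The 5 genes were SNRPG at −1.50, HNRNPC at −1.15, SNRPD2 at −1.07, SNRPB at −1.06 and HNRNPAB, which lay just past the limit with 3.13 FPKM in the lactate input and 7.26 in the vehicle input. SNRPD2, the SmD2 ring protein, had 25.5 FPKM in the lactate input and 54.4 in the vehicle input, and SNRPB had 4.72 in the lactate input and 10.9 in the vehicle input. On reads the HNRNPC ratio was −1.20, with a 95% counting interval of −1.29 to −1.11. None of the 5 stayed past 2-fold once nuclear totals were made equal or libraries were scaled by median ratios, which moved the median of all genes to 0.02 and −0.02. SNRP genes had the lowest family median in all 3 scalings, −0.83 as deposited and −0.26 with equal nuclear totals. Of the 12 SNRP genes, 7 lay in the shortest class of protein-coding genes, whose median was −0.55, against −0.36 in the longest class. SRSF members ran between −0.70 for SRSF8 and −0.11 for SRSF4, with SRSF10, a repressor active when dephosphorylated, at −0.69 and SRSF2 at −0.44. The highest values were 0.13 for HNRNPUL2, 0.09 for SNRPN and 0.06 for SF3A1, the SF3A subunit that meets U1 stem-loops, followed by 0.00 for SF3B5 and −0.06 for HNRNPLL. SNRPD3 was at −0.23, and the lowest SF3 genes, SF3B2 and SF3B4, were at −0.70 and −0.70.

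**Figure D3:**
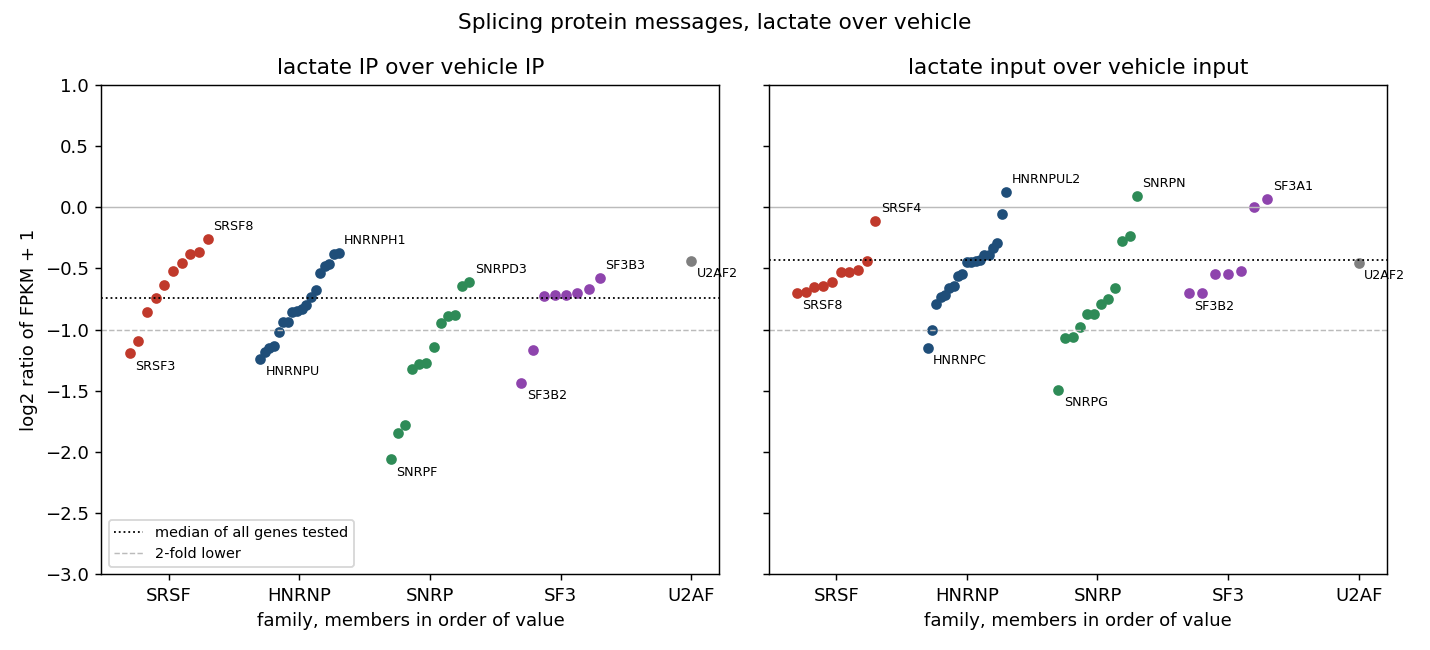
Log2 ratio of FPKM + 1 for each measured member, lactate IP over vehicle IP on the left and lactate input over vehicle input on the right, by family in order of value, with the median of all genes tested dotted and 2-fold lower dashed. SNRP members reach lowest in both panels, with SNRPF at the bottom on the left and SNRPG on the right.

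Between the IP libraries as deposited, every measured member was lower with lactate. The share of all genes that were lower at all was not counted, so this is not a result about the members. Of 49 members 16 were at least 2-fold lower in the lactate IP than in the vehicle IP and none was higher, where 27.7% of all 8366 genes were lower and 1.64% higher (24.4% and 0% of protein-coding genes). The median member was at −0.83 and the median gene at −0.74. In the highest level class of protein-coding genes 12 of 27 measured members were at least 2-fold lower, where 50.4% of its 1675 genes were. SNRP genes held 7 of the 16 lower members, with a family median of −1.21. SNRPF was lowest at −2.06, which on reads was −2.22, with a 95% counting interval of −2.44 to −2.02. SNRPB2, the U2 particle protein that binds stem-loop IV, followed at −1.85, and SNRPE at −1.78, or −1.51 with pseudogene reads added. SNRPB2 had 7.88 FPKM in the lactate IP against 24.0 in its input, and 30.9 FPKM in the vehicle IP against 41.0 in its input, the lactate IP again being the low library. SNRPD3 and SNRPA were the highest of that family, at −0.61 and −0.64. In the other families the lowest genes were SRSF3 at −1.19 and SRSF11 at −1.09, HNRNPU, a nuclear scaffold protein, at −1.24 and HNRNPC at −1.18, and SF3B2 at −1.44 and SF3A3 at −1.17. The highest were SRSF8 at −0.26 and SRSF2 at −0.37, HNRNPH1 at −0.37 and HNRNPA3 at −0.38, and SF3B3 at −0.58 and SF3A1 at −0.67. With pseudogene reads added HNRNPA3 was at −0.92 and no longer among the highest. With equal nuclear totals, or with median ratios, 1 member stayed at least 2-fold lower, and SRSF11 had a log2 ratio of 0.017 instead of −1.09 with equal nuclear totals. SNRP genes had the lowest family median under each scaling, −0.24 with equal nuclear totals, where the SRSF, HNRNP and SF3 medians turned positive at 0.14, 0.11 and 0.08. The median of all genes turned positive as well, to 0.08, with 25 of 50 measured members above it and 25 below.

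The difference of the enrichments, lactate minus vehicle, shares all 4 libraries with the comparisons above. It was at most −1 for 2 of 50 members, SNRPF at −1.19 and SNRPB2 at −1.10, and at least 1 for none, where 9.56% of all 9445 genes were at most −1 and 3.04% at least 1 (5.1% and 0.27% of protein-coding genes). The median member was at −0.20 and the median gene at −0.36. Neither SNRPF nor SNRPB2 stayed past that limit with equal nuclear totals or median ratios. Other low values were −0.98 for HNRNPUL2, −0.75 for HNRNPD, −0.74 for SF3A1, −0.73 for SF3B2, −0.67 for SRSF3 and −0.53 for SRSF4. High values, at most 2 to a family, were 0.44 for SRSF8, 0.21 for SNRPG, 0.19 for HNRNPH1, 0.13 for SRSF1, 0.11 for SNRPB and 0.07 for HNRNPAB, with SF3B4 at −0.02 and SF3B1 at −0.17.

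Peaks called by the authors gave positions within the genes. Each list set an IP library against its own input, and the fold and q-value of a peak are the authors' own. At a q-value of at most 0.05, 41 lactate peaks lay at 21 of the 55 members and 77 vehicle peaks at 29. Among genes at 1 FPKM or more, 21 of 49 members had a lactate peak, where 65.1% of protein-coding and 58% of all genes did, and 28 of 50 members had a vehicle peak, where 83.1% of protein-coding and 76.4% of all genes did. At a q-value of at most 0.05 in the authors' deposited tables, SRSF11 had the most peaks, with 6 in lactate and 7 in vehicle cells. Next in the lactate list were HNRNPR with 5, SF3B2 and SRSF4 with 4 each and HNRNPD with 3. HNRNPR is a cofactor of axonal mRNA transport. In the vehicle list HNRNPC also had 7, then HNRNPM and SRSF4 with 6 each, and SF3B2 and SF3B3 with 5 each. SRSF1, SRSF2, SRSF5, SRSF6, SRSF7 and SRSF8 had no peak within that q-value limit in either list, although all passed 1 FPKM. The same held for HNRNPA1, HNRNPA3, HNRNPH1, HNRNPH2, HNRNPH3, SF3B4, SF3B5, SF3B6, SNRPB2, SNRPC, SNRPG, U2AF2 and the 3 SmD genes. Some of these genes, such as HNRNPH1 and SNRPD3 in the vehicle list, had listed peaks with a q-value above 0.05.

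By the authors' deposited tables the strongest member peak in both lists was at SF3B2, in an exon at chr11:66057951-66058512 (GRCh38, plus strand), with a fold enrichment of 24.0 in lactate cells, and at chr11:66057871-66058811 with 25.8 in vehicle cells. A peak in an exon of HNRNPU, at chr1:244863571-244864467 on the minus strand, had a fold of 20.3 in the authors' deposited lactate table, and one at chr1:244863554-244864388 had 11.7 in the vehicle table. The vehicle table of the authors' deposited peaks further held the SRSF4 3′ UTR at chr1:29148708-29149182 with a fold of 12.3, an SNRPA1 intron at chr15:101291560-101291923 with 12.1 and an HNRNPUL2 exon at chr11:62721889-62722334 with 10.3. In the lactate table deposited by the authors the next were an HNRNPC intron at chr14:21219598-21219961 with 8.34, an HNRNPM intron at chr19:8477183-8477671 with 7.38 and the SF3A3 3′ UTR at chr1:37957040-37957803 with 6.04. These folds are per peak: HNRNPC was below its input as a whole gene, at −1.40 in lactate cells, while 1 of its introns carried a listed peak.

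**Figure D4:**
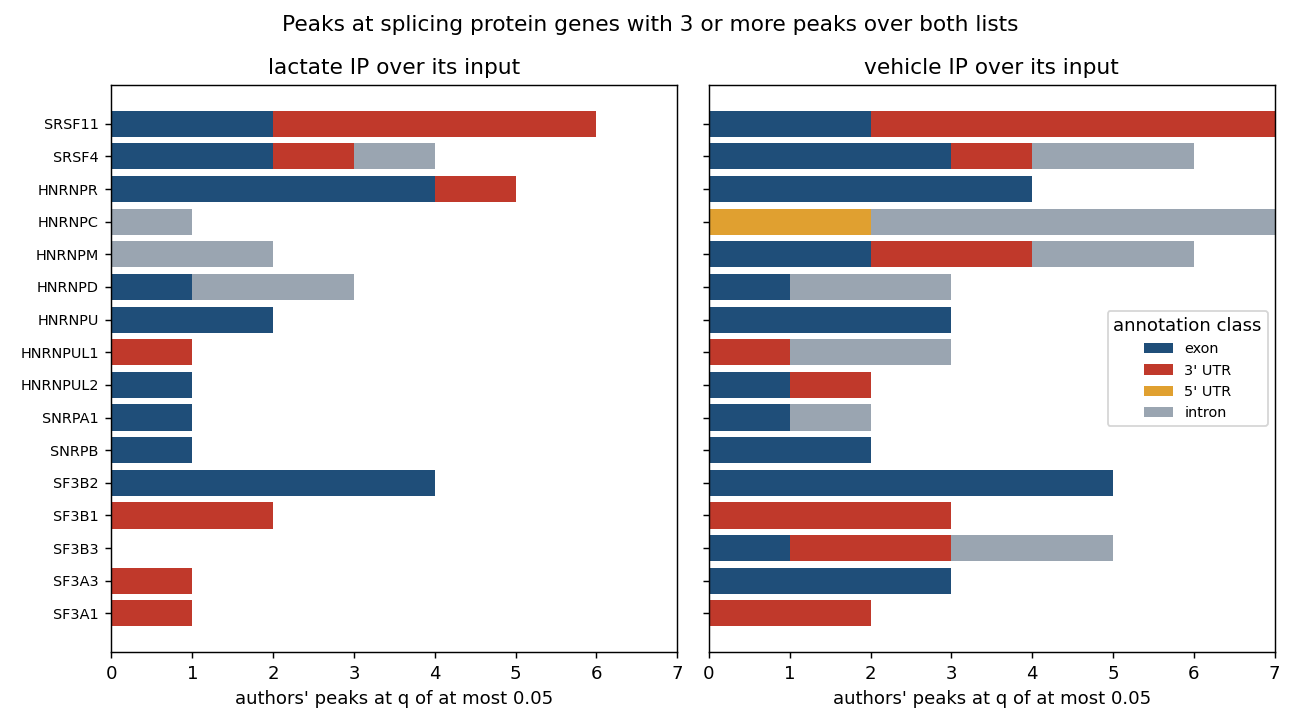
Number of the authors' peaks with a q-value of at most 0.05 at the 16 members with 3 or more peaks over both lists, coloured by the authors' annotation class, lactate on the left and vehicle on the right. SRSF11 peaks lie in exons and 3′ UTRs in both panels, whereas most HNRNPC peaks of the vehicle panel lie in introns.

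Peaks at members lay more in exons than peaks in general, by the authors' annotation. Exons held 48.8% of the 41 lactate member peaks (95% Wilson interval 34.3 to 63.5, counting error only) and 24.9% of all 20549 lactate peaks. In the vehicle list they held 44.2% of 77 member peaks and 27.1% of all 46524 peaks. Introns held 19.5% of member peaks and 46.9% of all peaks in the lactate list, and 26.0% and 47.7% in the vehicle list. The 3′ UTR held 31.7% of lactate member peaks against 23.5% of all lactate peaks, and 24.7% of vehicle member peaks against 18.8% of all vehicle peaks. Peaks of 1 gene share its RNA and are not independent of each other. Of the 41 lactate peaks 35 overlapped a vehicle peak by at least 1 base (85.4%), and of the 77 vehicle peaks 34 overlapped a lactate peak (44.2%). The lists had 20 members in common, which is 95.2% of the 21 in the lactate list and 69.0% of the 29 in the vehicle list. The vehicle list was the longer one, with 46524 peaks against 20549. Overlaps over all peaks and all genes were not computed, so these shares are not a result about the members.

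In the authors' deposited table that compares the IP libraries, 162 peaks could be placed at members by coordinates. Its M value is the log2 ratio of normalized read density, lactate over vehicle. M was at most −1 at 37 member peaks (22.8%, 95% Wilson interval 17.0 to 29.9, counting error only) and at least 1 at 11 (6.79%), where 38.6% and 13.9% of all 116484 peaks were in the authors' deposited table. The median M in the authors' deposited table was −0.17 at members and −0.50 over all peaks. At peaks of at least median density in that table, M was at most −1 at 15.0% of member peaks and 20.4% of all peaks. By family the share at most −1 in the authors' deposited table was 20% of 20 SRSF, 17.1% of 82 HNRNP, 29.4% of 17 SNRP and 33.3% of 42 SF3 peaks. At the SRSF11 exon at chr1:70249774-70250649 the authors' deposited table gave a density of 885 in the lactate IP and 575 in the vehicle IP, an M of 0.62. Its FPKM comparison of the same libraries, on another scale, ran the other way at −1.09. At the SF3B2 exon with the strongest peak M was 0.15, at the SNRPA1 intron peak it was −1.63 and at an SRSF3 exon at chr6:36596680-36597121 it was −2.57, all in the authors' deposited table.

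Other parts of the splicing pathway were read as lists by function, for IP over input. SR-related coactivators have tails like those of SR proteins, and many link SR proteins to the spliceosome. Their list here also held TRA2A and TRA2B. At least 2-fold above the input were 6 of 21 measured genes in lactate cells, with 1 at least 2-fold below it, and 10 of 22 in vehicle cells, with 1 below. Their median was 0.20 in lactate and 0.84 in vehicle cells. In lactate cells they ran between −1.58 for TRA2A, a sequence-specific enhancer binder, and 1.80 for SRRM2, a large speckle protein. In vehicle cells they ran between −1.40 for TRA2A and 2.58 for RBM25, a regulator of splice site choice. Over all genes tested 16% were at least 2-fold higher and 23.3% lower in lactate cells, and 27.6% higher and 15.3% lower in vehicle cells, and the list counts here are to be read against those shares.

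Against the same shares of all genes, 16% higher and 23.3% lower in lactate cells and 27.6% higher and 15.3% lower in vehicle cells, the U4/U6 and U5 proteins had 3 of 14 higher and none lower in lactate cells, between −0.97 for SNRNP27 and 1.85 for PRPF6, and 7 of 16 higher and 1 lower in vehicle cells, between −1.10 for SNU13 and 2.35 for SART1. The remaining U1, U2 and branch point proteins had none of 10 past 2-fold in lactate cells, between −0.91 for HTATSF1 and 0.84 for DDX46, and 5 of 11 higher and none lower in vehicle cells, with DHX15 lowest at −0.22 and DDX46 highest at 1.68. SNRNP70, a U1 particle protein outside the spelling rule, was at 0.35 in lactate and 1.00 in vehicle cells. Other RNA-binding splicing regulators were divided, with 4 of 25 higher and 11 lower in lactate cells, between −2.37 for KHDRBS1 and 1.76 for RBM10. In vehicle cells 6 of 26 were higher and 7 lower, between −1.92 for MBNL2 and 1.93 for CELF1.

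The smaller lists hold few genes each, and their counts stand beside 16% of all genes higher and 23.3% lower in lactate cells, and 27.6% higher and 15.3% lower in vehicle cells. Minor spliceosome proteins had 1 of 5 higher, PDCD7 at 1.36, and 1 lower, ZCRB1 at −1.95, in lactate cells, and 3 of 7 higher and 1 lower in vehicle cells, where PDCD7 was at 2.17 and ZCRB1 at −1.68. PRPF19 complex and second-step factors had none of 15 higher and 2 lower in lactate cells, with BCAS2 lowest at −2.05, and 5 of 17 higher and 1 lower in vehicle cells, with DHX16 at 1.59 and BCAS2 at −2.12, the higher ones being near the share of all genes. LSm proteins of the U6 RNA had none of 6 higher and 2 lower in either treatment, with LSM5 lowest at −1.95 in lactate and −1.55 in vehicle cells. SR protein kinases had none of 4 higher and 1 lower in lactate cells, CLK1 at −1.39, and in vehicle cells 1 of 5 higher, PRPF4B at 1.24, and 1 lower, CLK1 at −2.12.

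In the lists of at most 9 measured genes that follow, with the shares of all genes as before (16% and 23.3% in lactate, 27.6% and 15.3% in vehicle cells), nonsense-mediated decay factors had 2 of 6 higher and none lower in lactate cells, with SMG5 highest at 1.19, and 4 of 6 higher and none lower in vehicle cells, with UPF2 highest at 2.21. The exon junction complex had none of 5 past 2-fold in lactate cells, between −0.94 for MAGOHB and 0.41 for CASC3, and 1 higher and 1 lower in vehicle cells, CASC3 at 1.47 and MAGOH at −1.38. The SMN complex had none of 6 higher and 2 lower in lactate cells, with SMN1 lowest at −2.48, and 2 of 9 higher and 2 lower in vehicle cells, with GEMIN4 at 1.19 and SMN2 at −2.92. SMN2 shares nearly all its sequence with SMN1, so that neither level is certain.

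NSUN2 message itself was at −0.36 in lactate and −0.12 in vehicle cells. Between the inputs 3 genes of the lists other than the ductal markers were at least 2-fold lower with lactate and none was higher. Of all 6766 genes 6.46% were lower and 1.76% higher, and of protein-coding genes 3.07% and 0.036%. The 3 genes are not a result about the lists. Among 9 measured U1, U2 and branch point genes it was PHF5A, a small SF3B subunit, at −1.17. Among 16 PRPF19 complex and second-step genes they were BUD31 at −1.11 and SNW1 at −1.03, the last of these named because the count was small.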

How the data were processed

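PANC-1 RNA was sequenced from 1 library per group with the SMART-Seq v4 kit. Per the submitters' processing notes, the named tools were HISAT2 2.1.0, fastp 0.20.1, HOMER 4.11.1, MACS2 2.2.7.1, DiffBind and bedtools 2.29.2, and the build was GRCh38. The sources used here do not give the gene counter, its annotation release, its use of strand or its handling of shared reads. FPKM per gene and library were deposited by the authors, with no scaling between libraries. Per the file headers, each peak list holds a q-value, a p-value, the −log10 of both and a fold enrichment (ratio). The authors' deposited comparison of the IP libraries gives normalized read densities (signal) and their log2 ratio M. M differed from the log2 ratio of the densities by at most 2.04e-05 over 116484 peaks.

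Gene ratios are log2(FPKM + 1) differences, for genes at 1 FPKM or more in a compared library. They understate changes of low genes, and a ratio past 1 or −1 on this scale counted as 2-fold. Of 72387 FPKM values above 0, 72386 gave whole reads within a relative 1e-08. Reads served for depth and for 95% exact binomial intervals on log2 ratios, which are printed without a pseudocount. The kit has no molecular identifiers, so intervals and the floor of 3 reads cover counting error only. No count model was run, because no group has a second library. Scripts used Python 3.11.15, pandas 2.3.3, NumPy 2.4.6 and SciPy 1.17.1, and read recovery was tested on simulated data.

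The members and the 14 gene lists were chosen with earlier results of these data known. Of 185 list symbols 175 matched the table. Named were, per comparison, the 2 highest and 2 lowest members of each family (1 each for U2AF), members past 2-fold against their family median, the most and least abundant of each family, members under 20 reads, and the extremes of each list. For peaks the 5 members with most peaks per list and the 5 with the highest authors' fold were named. Level and length classes were added after seeing the data. Alternatives covered the pseudocount, the FPKM filter, equal nuclear totals, median ratios, peak thresholds and, chosen after seeing the data, reads of members and their pseudogenes summed.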

Additional observations from a re-analysis of the deposited data

Results flagged for a closer look

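For 9 members the IP over input log2 ratio had opposite signs in lactate and vehicle cells. With 1 library per group the difference was not tested. Each value is the lactate ratio minus the vehicle ratio. HNRNPR, at −0.34 in lactate and 0.14 in vehicle cells, differed by −0.48, and SNRPN, at −0.56 in lactate and 0.41 in vehicle cells, by −0.98. For these genes alone both counting intervals excluded 0, on opposite sides. The HNRNPR vehicle interval, 0.04 to 0.26, lay close to 0. All signs are those of the libraries as deposited and were not examined under the other scalings. HNRNPUL2 differed by −0.98, SNRPE by −0.90, SF3B5 by −0.71, HNRNPM by −0.71 and SRSF4 by −0.53, all lower in lactate cells, and at least 1 of their intervals included 0. With pseudogene reads added SNRPE was at 0.18 in lactate and 0.73 in vehicle cells, so that the signs were no longer opposite, and the difference was −0.55. HNRNPA0, at −0.020, and HNRNPAB, at 0.067, were near 0 under both treatments. The median gene differed by −0.36 in the same comparison. Its own signs were opposite too, at −0.10 in lactate and 0.44 in vehicle cells. The share of all genes with opposite signs was not counted, so the 9 are not a result about the members.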

How the results depend on the processing

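No paired analysis was possible because each group has 1 library. In the input comparison 5 members were 2-fold lower with lactate, and 1 with a pseudocount of 5, 0 with equal nuclear totals and 0 with median ratios. In lactate cells, IP over input, the 1 higher became 3 with a pseudocount of 0.1 and 4 with equal nuclear totals, and the 23 lower became 12 with a pseudocount of 5. In vehicle cells the 3 higher became 5 with 0.1 and the 21 lower became 13 with 5. For lactate IP over vehicle IP, the 16 lower became 26 with 0.1, 7 with 5, 1 with equal nuclear totals and 1 with median ratios. For the difference of enrichments the 2 lower became 6 with 0.1, 0 with 5, 0 with equal nuclear totals and 0 with median ratios. The shares of all genes past 2-fold were not computed under these alternatives, so the changed counts are not a result about the members. The share of member peaks with M at most −1 was 22.8%, against 38.6% of all peaks. At peaks of at least median density it was 15.0%, against 20.4% of all such peaks. SRSF11, lactate IP over vehicle IP, reversed to 0.017 with equal nuclear totals. Equal nuclear totals moved the median of all genes in that comparison to 0.08, against −0.74 as deposited; the cause of these moves is the scaling or pseudocount itself. Members past 2-fold as first computed gave 490 values under an alternative. Of these, 300 moved by no more than the distance from the middle of their counting interval to its end, 189 moved by more and 1 reversed. For the difference of enrichments, which has no such interval, a fixed limit was used. Members with a peak stayed between 16 and 21 in the lactate list and between 23 and 29 in the vehicle list under the peak alternatives. Genes with few reads, such as SRSF9 and U2AF1, limit what this depth can show.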
